A study of Mus musculus with 36 samples.

Results

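Cells of the BV-2 line, immortalised microglia of the mouse, were activated with lipopolysaccharide (LPS) in the presence of cannabidiol (CBD) and compared with cells that received only ethanol, the vehicle of CBD, after 4 h. The comparison held 6 of the 36 RNA-seq libraries of the series, all those labelled LPS with CBD at 4 h (replicates 1, 2 and 3) and all those labelled EtOH at 4 h (replicates 4, 5 and 6). Every gene of their joint table was a member: 17243 genes were listed, and 11478 had a normalized count of 10 or more in at least 3 of the 6 libraries and were tested. LPS was given at 600 ng/mL and CBD at 6 µM, the vehicle made up 0.2% of the medium in every culture, and serum was lowered just before treatment. LPS and CBD were both absent from the EtOH cultures, so their effects cannot be told apart in this comparison. To set LPS alone beside it, the 3 libraries of LPS without a drug at 4 h (600 ng/mL; the vehicle of this group is not given in the sources used here) were used, and the same EtOH and LPS with CBD groups at 24 h, 6 libraries, showed how the difference changed with time. BV-2 is 1 transformed line without the other cells of the brain, and the labels state that the experiment was repeated 3 times. They do not say whether the repeats were separate thaws or passages, so p-values measure the spread between these cultures, which may be partly technical. Poly(A) RNA was sequenced.

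Microglia are the resident macrophages of the brain. Their Toll-like receptor 4, with the accessory proteins CD14 and MD-2, senses LPS from bacterial walls and signals through MyD88 to the transcription factors NF-kB and AP-1, and through TRIF to interferon regulatory factors and type I interferon. NF-kB switches on cytokines and chemokines and also its own inhibitors, and interferon induces a separate set of antiviral genes. CBD is a non-intoxicating plant cannabinoid with anti-inflammatory properties that has many described protein targets besides the cannabinoid receptors.

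The 6 libraries held between 15622361 and 16985169 counted reads, with 14594 to 15012 genes detected and 1.99% to 2.25% of reads from mitochondrial genes. General microglia and macrophage markers were high: Csf1r, the receptor for the survival factor of these cells, had normalized counts (reads divided by the library's size factor) of 8771 to 12060 in all 6 libraries, and Ptprc (CD45) of 8917 to 12221. Markers that set microglia of the brain apart were low or missing, since P2ry12 lay between 30.7 and 73.1, Tmem119 between 35.9 and 89.3, and C1qa had 1 read over the 6 libraries. Markers of other cell types summed to 0 to 3.92 for fibroblasts, 9.69 to 28.7 for astrocytes, 127 to 169 for endothelial cells and 176 to 308 for neurons. The oligodendrocyte list summed to 1312 to 1449 with EtOH and 1027 to 1048 with LPS and CBD, almost all of it Mbp (−0.42 on the log2 scale), while Mog was at or near 0. In bulk RNA, fewer cells expressing a gene and less RNA per cell cannot be told apart.

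EtOH replicate 5 and LPS with CBD replicate 2 stood apart from their partners. On the second principal component, which held 11.9% of the variance over the 9 libraries of 4 h used here, EtOH replicate 5 lay at −15.4, LPS replicate 2 at −14.0 and LPS with CBD replicate 2 at −12.8, and the other 6 lay between −2.36 and 14.7. Of the 863 genes called higher with LPS and CBD, EtOH replicate 5 was the highest EtOH library in 559 (64.8%) and LPS with CBD replicate 2 was the highest treated library in 631 (73.1%). Values without 1 of these libraries are given beside some leading rises and gene groups, and not for every group whose count changed. Without EtOH replicate 5, for example, 15 cytokines and 8 glycolysis genes were called higher, against 14 and 5 with all libraries. For DNA replication and G1 control 10 were called lower, against 12.

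The promoters of 6 genes are printed because the results turn on 3 gene groups, targets of NF-kB (Cxcl2, Nfkbia), interferon-stimulated genes (Ifit1) and zinc-responsive genes (Slc30a1, Mt1, Mt2), for each of which a short DNA motif is well known. Each is the 250 bases before the canonical transcription start, read from GRCm39 and written 5′ to 3′ on the gene's strand. Cxcl2 is at chr5:91051480-91051729 (+), Nfkbia at chr12:55539433-55539682 (−), Ifit1 at chr19:34618021-34618270 (+), Slc30a1 at chr1:191638593-191638842 (+), Mt1 at chr8:94905460-94905709 (+) and Mt2 at chr8:94898882-94899131 (+). Capitals mark matches on either strand to the NF-kB consensus in Cxcl2 and Nfkbia, to the interferon-stimulated response element (GAAA, any 2 bases, then GAAA) in Ifit1, and to the core of the metal response element, TGCACNC or TGCGCNC, in the other 3.
Cxcl2: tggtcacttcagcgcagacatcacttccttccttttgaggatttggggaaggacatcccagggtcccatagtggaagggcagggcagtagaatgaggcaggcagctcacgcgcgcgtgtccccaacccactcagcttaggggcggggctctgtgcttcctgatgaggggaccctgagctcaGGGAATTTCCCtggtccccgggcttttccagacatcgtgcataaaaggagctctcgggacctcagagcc
Nfkbia: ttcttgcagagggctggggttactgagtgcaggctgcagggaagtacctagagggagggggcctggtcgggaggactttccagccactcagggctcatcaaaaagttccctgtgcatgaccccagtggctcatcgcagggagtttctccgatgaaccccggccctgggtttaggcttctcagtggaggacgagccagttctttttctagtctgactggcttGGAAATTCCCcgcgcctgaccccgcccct
Ifit1: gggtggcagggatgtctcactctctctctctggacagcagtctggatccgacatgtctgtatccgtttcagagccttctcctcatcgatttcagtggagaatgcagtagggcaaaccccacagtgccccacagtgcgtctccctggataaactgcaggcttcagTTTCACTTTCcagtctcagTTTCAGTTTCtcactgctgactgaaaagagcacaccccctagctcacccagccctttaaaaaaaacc
Slc30a1: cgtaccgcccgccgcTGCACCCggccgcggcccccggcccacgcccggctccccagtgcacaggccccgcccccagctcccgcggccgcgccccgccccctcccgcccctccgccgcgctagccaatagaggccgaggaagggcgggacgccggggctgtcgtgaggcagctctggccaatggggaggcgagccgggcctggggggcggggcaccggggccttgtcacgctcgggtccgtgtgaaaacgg
Mt1: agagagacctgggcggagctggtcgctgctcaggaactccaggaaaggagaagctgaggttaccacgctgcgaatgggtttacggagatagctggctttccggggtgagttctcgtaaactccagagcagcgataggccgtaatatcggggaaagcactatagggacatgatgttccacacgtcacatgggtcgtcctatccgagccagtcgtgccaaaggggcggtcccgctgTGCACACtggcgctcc
Mt2: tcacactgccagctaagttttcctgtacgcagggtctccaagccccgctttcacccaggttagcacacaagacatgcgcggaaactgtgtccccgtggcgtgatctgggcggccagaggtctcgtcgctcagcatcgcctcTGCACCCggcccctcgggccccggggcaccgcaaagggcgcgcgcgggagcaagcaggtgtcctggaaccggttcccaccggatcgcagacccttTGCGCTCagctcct

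Over the promoters of 11473 tested genes, the NF-kB consensus was present in 502 (4.38%), the interferon-stimulated response element in 348 (3.03%) and the metal response element in 3050 (26.6%). Among genes called higher with LPS and CBD the shares were 7.88%, 6.84% and 24.9%, and among genes called lower 6.77%, 1.73% and 28.1%. The NF-kB consensus was found in 6 of 14 chemokine promoters, in 5 of 12 promoters of NF-kB inhibitors and in Ccl20, Cxcl2, Il36a, Lcn2 and Nos2 among the 12 leading rises. The interferon-stimulated response element was found in 8 of 20 promoters of interferon-stimulated genes. The metal response element was found in 4 of 14 promoters of zinc handling genes (28.6%), a share near the 26.6% of all promoters. In Cxcl2 the capitals are an overlapping pair of matches, 1 on each strand, 59 to 69 bases before the start, and in Nfkbia the match lies 20 to 29 bases before it. The metal response element lay 10 to 16 bases before the start of Mt1 and 229 to 235 bases before that of Slc30a1, and Mt2 held 2 copies. The canonical starts of Slc30a1 and Mt2 lie before the gene starts listed with the counts (191638879 and 94899292). The bases between, and those beyond the 250 bases, were not searched. A match is a description of the letters and not evidence of binding.

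At 4 h, LPS with CBD changed the expression of 1557 of the 11478 genes tested (13.6%) relative to EtOH, using limma on log2(normalized count + 1) and calling genes at a Benjamini-Hochberg adjusted p below 0.05. Of these, 863 were higher (7.52%) and 694 lower (6.05%). The rises were larger than the falls: 294 genes rose more than 2-fold and 90 more than 4-fold, whereas 36 fell more than 2-fold and 1 more than 4-fold. The median log2 fold change was 0.66 among called rises, −0.43 among called falls and −0.0032 over all genes tested. The 2 groups did not overlap in 3756 genes (32.7%). The number called fell to 871 without EtOH replicate 6, to 914 without EtOH replicate 4 and to 989 without LPS with CBD replicate 3, and was 1561 when both libraries that stood apart were left out. None of the 1557 calls changed sign in any alternative, but all alternatives reuse these libraries, so a change of sign was unlikely from the start. Without EtOH replicate 6, 697 of the calls were lost.

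**Figure D1:**
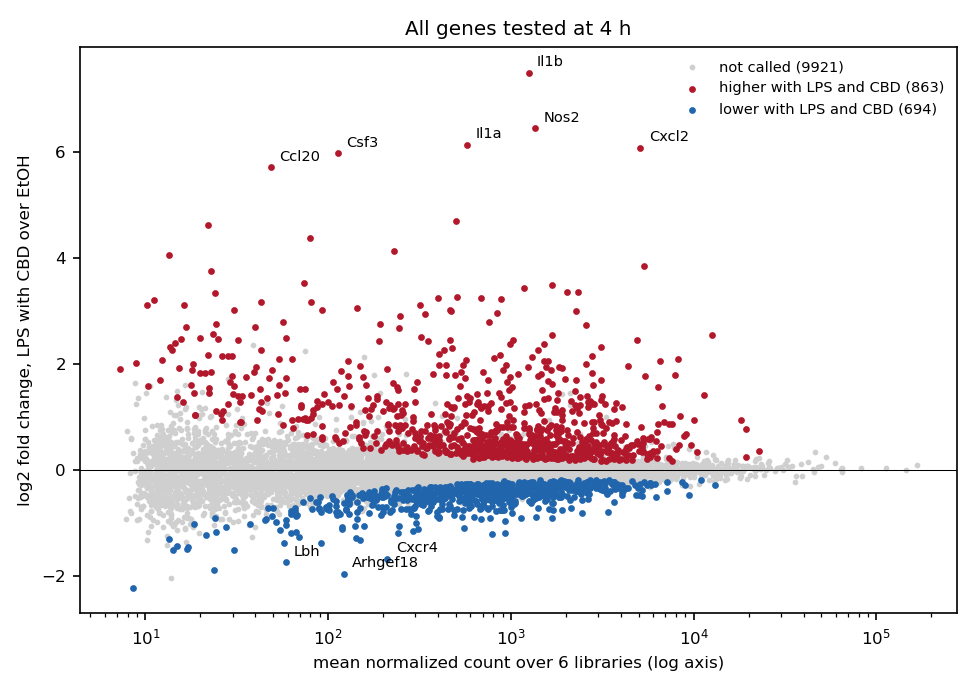
Mean normalized count over the 6 libraries (x, log axis) against the log2 fold change of LPS with CBD over EtOH at 4 h (y) for the 11478 genes tested, with the 863 called higher in red, the 694 called lower in blue and the 9921 not called in grey. The rises reach 7.49 on the log2 scale and the lowest value is −2.21.

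Il1b encodes interleukin 1 beta, a central inflammatory cytokine, and lies on chromosome 2 (129206490 to 129213059). Its normalized counts were 7.85, 48.5 and 3.75 with EtOH and 1664, 3972 and 1815 with LPS and CBD. The log2 fold change was 7.49 ± 0.74 (SE, n = 3 per group, adjusted p = 0.000414, limma), 179-fold on the scale of count + 1. It was 6.77 without EtOH replicate 6 and 8.46 without EtOH replicate 5, the ends of the range when 1 library was left out. Il1a, its neighbour on the same chromosome and a related alarm cytokine, had 12.8, 13.6 and 17.8 with EtOH and 977, 1587 and 838 with LPS and CBD (6.13 ± 0.24). Nos2, the inducible nitric oxide synthase, had 11.8, 130 and 11.3 with EtOH and 1430, 4480 and 2096 with LPS and CBD (6.44 ± 0.84, with 5.86 without EtOH replicate 6 and 7.57 without EtOH replicate 5). In these genes the groups were far apart, and for Il1b and Nos2 EtOH replicate 5 was several times above its partners.

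Cxcl2, a neutrophil-attracting chemokine, had 104, 297 and 103 with EtOH and 11139, 10457 and 8596 with LPS and CBD, and was the most abundant transcript among the rises of over 60-fold (67.5-fold, log2 6.08 ± 0.35). Csf3 (G-CSF, which drives neutrophil production) had 2.94, 2.91 and 1.88 against 255, 235 and 183 (5.98 ± 0.25). Ccl20, a chemokine that attracts cells bearing CCR6, had 3 reads over the EtOH libraries and 279 over the LPS with CBD libraries, or 99.9 times as many after scaling (exact 95% limits 33.8 and 487, for counting error only). These 3 were near silent or low in every EtOH library.

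The remaining leading rises were Mmp13, a collagenase (4.70), Il36a, an interleukin 1 family cytokine (4.38), Lcn2, a protein that withholds iron from bacteria (4.14), Acod1, which makes itaconate (3.85), Gbp5, an interferon-induced GTPase (3.53), and Ccl4, a macrophage chemokine (3.48). Acod1 was already abundant with EtOH (491, 1174 and 535) and reached 8411, 12947 and 8626 with LPS and CBD. Lcn2 had 9.81, 52.3 and 19.7 with EtOH and 289, 675 and 330 with LPS and CBD. Without EtOH replicate 5 the log2 fold change was 6.58 for Cxcl2, 5.05 for Mmp13, 4.75 for Lcn2, 4.25 for Acod1 and 3.98 for Gbp5, and without LPS with CBD replicate 2 that of Gbp5 was 3.08. All 12 rises remained called when any 1 library was left out.

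The falls were smaller. Arhgef18, a guanine nucleotide exchange factor, had normalized counts of 204, 160 and 218 with EtOH and 42.5, 41.2 and 67.6 with LPS and CBD (−1.95 ± 0.21 on the log2 scale, adjusted p = 0.00066, limma). Lbh, a transcription cofactor, had 86.3, 97.9 and 87.2 against 28.7, 26.4 and 24.3 (−1.74 ± 0.17). Cxcr4, the receptor of CXCL12, had 296, 288 and 380 against 104, 87.7 and 109 (−1.67 ± 0.14). On the scale of count + 1 these falls were 3.85-fold, 3.33-fold and 3.17-fold, and the groups were well apart in each gene.

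S1pr1, a receptor for sphingosine 1-phosphate, fell by 1.31, Rasgrp3, an activator of Ras and Rap, by 1.20, and Lifr, the receptor of leukaemia inhibitory factor, by 1.17 on the log2 scale, the last while its ligand Lif rose by 1.65. Slc39a10, a zinc importer, fell from 1326, 1393 and 1144 to 488, 589 and 627 (−1.18 ± 0.11). Treml1, a receptor of the TREM family, 4931408C20Rik, a protein-coding gene with no role stated here, and Rab19, a small G protein, fell by 1.36, 1.38 and 1.19. Dgkg (−1.28), a diacylglycerol kinase, lost its call without EtOH replicate 6 or LPS with CBD replicates 1 or 3, and Rab3il1 (−1.25) without EtOH replicates 4 or 6, while the other 10 kept theirs without any 1 library. That of 4931408C20Rik was lost when all libraries of the time point were fitted together (adjusted p = 0.0556, limma). The 24 genes named here were chosen by size of change among called genes whose groups did not overlap and whose higher group averaged 50 or more, so the absence of overlap is a property of the choice.

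**Figure D2:**
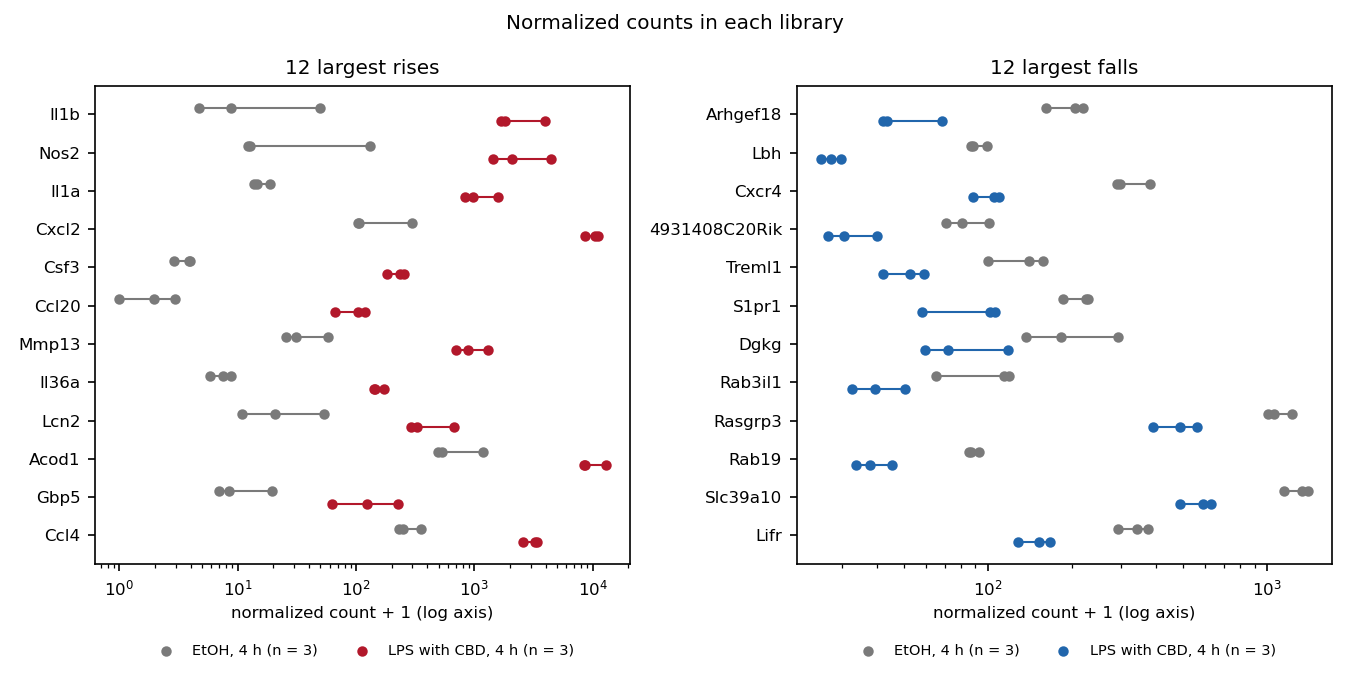
Normalized count + 1 (log axis) in each of the 6 libraries for the 12 largest rises (left) and the 12 largest falls (right), with EtOH in grey and LPS with CBD in colour. Points are libraries and lines join the lowest and highest of a group. EtOH replicate 5 is the isolated high grey point of Il1b (48.5) and Nos2 (130), and the 2 groups do not overlap in any gene shown.

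Counts for the gene lists are to be read beside the shares over all genes tested, 7.52% called higher and 6.05% called lower. Among cytokines, 14 of the 17 tested rose and none fell (median log2 fold change 2.01), and among chemokines 9 of 14 rose and none fell (2.29). Tnf, the prototype macrophage cytokine, had 1453, 1657 and 1441 with EtOH and 8689, 7879 and 8273 with LPS and CBD, a 5.46-fold rise with very little spread (log2 2.45 ± 0.07, adjusted p = 5.65e-07, limma). Il6 had 3.92, 1.94 and 3.75 against 32.6, 75.1 and 26.4 (3.33 ± 0.45), and Il1rn, the natural antagonist of the interleukin 1 receptor, 896, 1046 and 1124 against 4161, 4648 and 3533 (2.01 ± 0.11). The agonists Il1a and Il1b and their antagonist thus rose together, from very different EtOH levels. The colony-stimulating factors Csf1 (1.38), Csf2 (3.11) and Csf3 all rose, as did the interleukin 27 subunits Il27 (2.27) and Ebi3 (1.83). Csf2 and Tnfsf15 (2.69) had few reads and lost their calls without some single libraries, LPS with CBD replicates 1 or 3 for Csf2.

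Il15 (0.92), Il18 (0.78) and Tnfsf9 (0.07) did not pass. Il12a, Il12b, Il10 and Ifnb1 did not pass the filter on low values. Of the chemokines, Ccl3 (2.75), Cxcl3 (3.23), Cxcl10 (3.27), Ccl7 (2.43), Ccl2 (2.15) and Ccl9 (1.19) rose. Ccl2, which recruits monocytes, had 916, 939 and 1191 with EtOH and 5841, 3683 and 4168 with LPS and CBD. Ccl5 had 60.8, 204 and 68.5 against 215, 378 and 220, where EtOH replicate 5 nearly reached the treated group, and was not called (1.45, adjusted p = 0.0564, limma). The study itself named Il1a, Il1b, Tnf, Ccl2, Ccl7, Ccl9 and Cxcl2 from libraries of this series, so their direction is not independent evidence. Reads of the near copies Ccl3 and Ccl4, and Cxcl2 and Cxcl3, may have been split between them.

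Receptors for these signals moved both ways. Of 8 chemokine and complement receptors tested, 3 rose, among them Ccrl2 (2.68) and C3ar1 (0.93), and Cxcr4 fell, with a list median of 0.67. Cx3cr1, the fractalkine receptor of microglia, had 170, 200 and 207 against 295, 210 and 250 and was not called, and Cxcr2 ranged from 120 to 407 with EtOH and from 74.2 to 319 with LPS and CBD.

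Of 21 genes tested for the sensing of LPS and the signalling behind it, 8 rose and none fell, and the median was 0.11. Tlr4 itself had 577, 686 and 751 with EtOH and 598, 607 and 678 with LPS and CBD (−0.09 ± 0.10), and its partner Ly96 (MD-2) −0.04 ± 0.15. Neither passed the test. The co-receptor Cd14, one of the most abundant transcripts of the list, rose from 14569, 14638 and 13630 to 23368, 24953 and 24794 (0.77 ± 0.06), and Tlr2, the receptor for bacterial lipopeptides, rose 2.37-fold (1.24 ± 0.05). Traf1 (3.00), the kinases Ikbke (2.37), Irak2 (1.85) and Map3k8 (1.60), Ticam1 (0.80), which encodes TRIF, and Tbk1 (0.27) rose as well. The core kinases and adaptors Irak1 (−0.05), Irak4 (−0.23), Traf6 (0.07), Map3k7 (−0.14), Chuk (0.11), Ikbkb (0.08) and Ikbkg (0.08) were not called.

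Of the 5 NF-kB subunits, Nfkb1 (1.26), Nfkb2 (1.12), Relb (1.10) and Rel (0.60) rose, whereas Rela, the p65 subunit, had 2175, 2176 and 2143 against 2341, 2623 and 2277 and was not called (0.15 ± 0.06). Of 12 genes for inhibitors of the pathway and atypical IkB proteins, 9 rose and none fell (median 1.4). Nfkbiz, an atypical IkB protein needed for a subset of secondary targets, had 154, 230 and 212 with EtOH and 1943, 2499 and 1997 with LPS and CBD, a 10.8-fold rise. Nfkbia, which encodes the classical inhibitor IkB alpha, had 1144, 1887 and 1392 against 3850, 5280 and 5101 (1.70 ± 0.18), and Tnfaip3 (A20), a ubiquitin-editing brake on the pathway, rose by 1.97. Bcl3 (1.98), Tnip1 (1.61), Tnip3 (1.4), Irak3 (1.39), Nfkbib (0.80) and Nfkbid (0.77) also rose, and Nfkbie, Tnip2 and Cyld were not called. The counts of these 2 lists, 4 and 9, were the same without any 1 library. The study names Nfkb1, Nfkb2, Bcl3 and Nfkbid from this series.

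Of feedback regulators outside the NF-kB pathway, 11 of 13 rose and none fell (median 1.34). Cish, a suppressor of cytokine signalling, had 26.5, 33.9 and 29.1 with EtOH and 255, 312 and 208 with LPS and CBD (3.06 ± 0.18). Socs1 (2.80), Zc3h12a (2.38), the nuclease Regnase-1 that degrades cytokine mRNA, Ier3 (2.32), Socs3 (1.80) and Zfp36 (1.34), which encodes the mRNA decay factor tristetraprolin, rose. Dusp16 (1.46) and Dusp5 (1.25) rose most among the MAP kinase phosphatases, while Dusp1 had 108, 224 and 128 against 138, 255 and 152 and was not called. Immediate early factors were mixed at this time: of 19 tested, 6 rose and 2 fell (median 0.51). Atf3 (1.92), Maff (1.07), Klf6 (0.77), Jund (0.59), Junb (0.57) and Mafk (0.51) rose. Fos fell from 514, 673 and 629 to 399, 477 and 414 (−0.49) and Fosb by 0.97, both of which lost their calls without EtOH replicate 6 or LPS with CBD replicate 3. The number called in this list was 5 without EtOH replicate 6.

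Interferon-stimulated genes rose as a group, 17 of the 20 tested and none lower (median 2.2). Rsad2, which encodes the antiviral enzyme viperin, had 208, 593 and 289 with EtOH and 1970, 5406 and 3685 with LPS and CBD (3.36 ± 0.42). Ifit1 had 239, 913 and 453 against 2123, 5759 and 4195 (3.00 ± 0.48), and Cmpk2, a mitochondrial nucleotide kinase, 6.87, 32.0 and 13.1 against 91.0, 185 and 157 (3.18 ± 0.48). Mx2 (3.25), Mx1 (3.01), Ifit3 (2.97), Gbp2 (2.91), Ifit2 (2.54) and Isg15 (2.46) rose by similar amounts. In all 20 genes EtOH replicate 5 was the highest of the EtOH libraries and LPS with CBD replicate 2 the highest of the treated libraries, so the 2 high libraries widened the spread in both groups.

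Irf7, the regulator of late interferon expression, had 458, 2520 and 846 with EtOH and 1661, 4543 and 2678 with LPS and CBD and was not called (1.46 ± 0.57), nor were Ifi44 (1.44) and Bst2 (0.54). Without EtOH replicate 5 all 20 were called higher and the median was 2.65, and with LPS with CBD replicate 2 also left out it was again 20. Without EtOH replicate 6 or without LPS with CBD replicate 3 the number called was 11. Members of the Ifit, Mx and Gbp families resemble each other, and reads may have been split between them.

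Of enzymes and secreted effectors of activated macrophages 9 of 10 rose and none fell (median 2.32). Ptgs2 (cyclooxygenase 2), which starts prostaglandin synthesis, had 2715, 4940 and 3558 with EtOH and 19502, 26151 and 18559 with LPS and CBD (2.54 ± 0.20), and Ptges, the prostaglandin E synthase, rose by 1.4. Hcar2, a receptor for hydroxy-carboxylic acids, had 77.5, 105 and 49.7 against 582, 857 and 717 (3.25 ± 0.25). Saa3, an acute-phase protein, rose from 1838, 6115 and 2264 to 10582, 18498 and 10020 (2.09) and lost its call without EtOH replicate 6. Ass1, which recycles citrulline to arginine for nitric oxide synthesis, was not called (0.28).

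Molecules of the activated cell surface rose in 11 of 13 genes tested, and none fell (median 1.34). Cd40, a costimulatory receptor, had 286, 297 and 309 against 1051, 1553 and 1340 (2.12 ± 0.13), and Fas, a death receptor, 142, 284 and 159 against 982, 1699 and 1298 (2.79 ± 0.27). Cd69 (2.50), the adhesion molecule Icam1 (1.18) and Cd274, which encodes the inhibitory ligand PD-L1 (1.34), rose, whereas Cd80 and Cd86 (both 0.40) did not pass. Cd40, Cd69, Cxcr2 and Hcar2 are also named by the study from this series. The count of this list was 7 without LPS with CBD replicate 2 or replicate 3. For class I antigen presentation 5 of 10 rose (median 0.36), led by the peptide transporter Tap1 (0.76) and the class I transactivator Nlrc5 (0.59), and the count was 1 without EtOH replicate 6 or LPS with CBD replicate 3.

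Of 12 genes of resting microglia tested none rose and 2 fell, Tgfbr1, the receptor of the cytokine that maintains microglial identity, from 914, 850 and 1071 to 664, 634 and 711 (−0.49), and Tmem119 (−0.82), whose call was lost without any 1 library other than LPS with CBD replicate 2. The median was −0.15, and Gpr34 and Siglech were among 7 listed genes that were not tested. Of 11 complement and Fc receptor genes, Fcgr2b, the inhibitory Fc receptor, rose (0.50) and the others did not pass. C3 had 1433, 3499 and 1851 with EtOH and 3356, 6020 and 3648 with LPS and CBD and was not called. Since 13.6% of all genes tested were called, 2 of 12 and 1 of 11 are near that share. They are not a result about these lists.

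Genes for entry into the cell cycle fell by small amounts. Of 15 genes of DNA replication and G1 control, 12 fell and none rose, with a median of −0.29. The D-type cyclins, which carry growth signals to the cell cycle, fell with little spread. Ccnd1 had 11175, 11007 and 10539 with EtOH and 8030, 7706 and 7845 with LPS and CBD (−0.47 ± 0.05), and Ccnd2 7759, 7226 and 7050 against 5310, 5194 and 5017 (−0.50 ± 0.06). Cdc6 (−0.49), Ccne1 (−0.46), E2f1 (−0.44), Cdt1 (−0.44) and Mcm2 (−0.31) fell as well. Pcna (−0.14), Mcm4 (−0.25) and the inhibitor Cdkn1a (0.14) were not called. The number called was 8 without EtOH replicate 6 or LPS with CBD replicates 2 or 3. None of 14 genes of cell division was called by limma, edgeR or DESeq2 and 1 had an unadjusted p below 0.05. Mki67 had 11552, 12082 and 10921 against 10674, 10961 and 9664 (−0.14 ± 0.07).

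Stress and metabolic pathways gave smaller differences. Of 21 Nrf2 targets, 4 rose and 2 fell with a median of 0.02. Slc7a11, the cystine importer, rose from 901, 1211 and 963 to 2476, 3140 and 2085 (1.31 ± 0.15), Hmox1 (heme oxygenase 1) by 0.52, Abcc1 by 0.39 and Srxn1 by 0.37, while Gclc, the catalytic subunit of glutathione synthesis, fell from 2554, 2671 and 2746 to 2047, 2006 and 2036 (−0.39 ± 0.05) and Osgin1 by 0.59. The calls of Hmox1, Srxn1, Abcc1 and Osgin1 were lost without some single libraries, EtOH replicate 4 or 6 among them for each, and the list count fell to 3. The study names Hmox1, Srxn1, Slc7a11, Gclm, Osgin1 and Gstm1 from this series. Nqo1 had between 6.92 and 17.4 in all 6 libraries, and Gclm (0.02), Txnrd1 (0.18) and Gsr (−0.09) were not called.

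Of 14 genes of the ATF4 stress response 6 rose (median 0.29), among them Atf4 itself (0.37 ± 0.05), Chac1 (0.66), Ppp1r15a (0.48) and Slc3a2 (0.44), the partner chain of Slc7a11. The count was 4 without EtOH replicate 4 or LPS with CBD replicate 3, and 3 when all libraries of the time point were fitted together. Of 12 chaperones of the endoplasmic reticulum, Herpud1 rose from 1452, 1558 and 1818 to 3380, 3982 and 3610 (1.19 ± 0.09) and Hspa5 by 0.36, and the others were not called. A count of 2 of 12 is near the 13.6% called over all genes tested. None of 9 cytosolic heat shock genes was called by limma, edgeR or DESeq2, and 2 had an unadjusted p below 0.05. For glucose uptake and glycolysis 5 of 16 rose (median 0.23), including the transporter Slc2a1, from 4404, 6457 and 3659 to 7888, 10612 and 8279 (0.91), and Hif1a, from 1730, 1820 and 1668 to 2786, 3084 and 2787 (0.73 ± 0.06). Without EtOH replicate 4 or 6 the count was 1.

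Of 19 sterol synthesis genes none was called higher and 1 was called lower, with a median of 0.21. An unadjusted p below 0.05 was found for 6, edgeR called 1 and DESeq2 3. EtOH replicate 5 was the highest EtOH library and LPS with CBD replicate 2 the highest treated library in all 19. Without EtOH replicate 5, 8 genes were called higher, 1 lower and the median was 0.33. Hmgcs1, for example, had 1645, 2599 and 1562 with EtOH and 2247, 3550 and 2424 with LPS and CBD (0.51, and 0.74 without EtOH replicate 5). Of 10 targets of the sterol receptor LXR and lipid droplet genes none rose and 3 fell, Srebf1 (−0.38), Abcg1 (−0.48) and Mylip (−0.35), with a median of −0.26, and the count was 1 without EtOH replicate 6.

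Of 16 genes of the cannabinoid system and of described CBD targets, 8 passed the filter on low values. Cnr2, the cannabinoid receptor of immune cells, had 105, 134 and 124 with EtOH and 95, 109 and 98.2 with LPS and CBD (−0.26, not called), and Trpv2, a channel described as a CBD target, 1839, 2046 and 1966 against 1856, 2152 and 1964 (0.03). Daglb, an enzyme that makes the endocannabinoid 2-arachidonoylglycerol, fell from 432, 484 and 439 to 284, 278 and 334 (−0.60 ± 0.10). Faah, which degrades anandamide, was called lower (−0.39) but lost its call without any 1 of the 6 libraries.

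**Figure D3:**
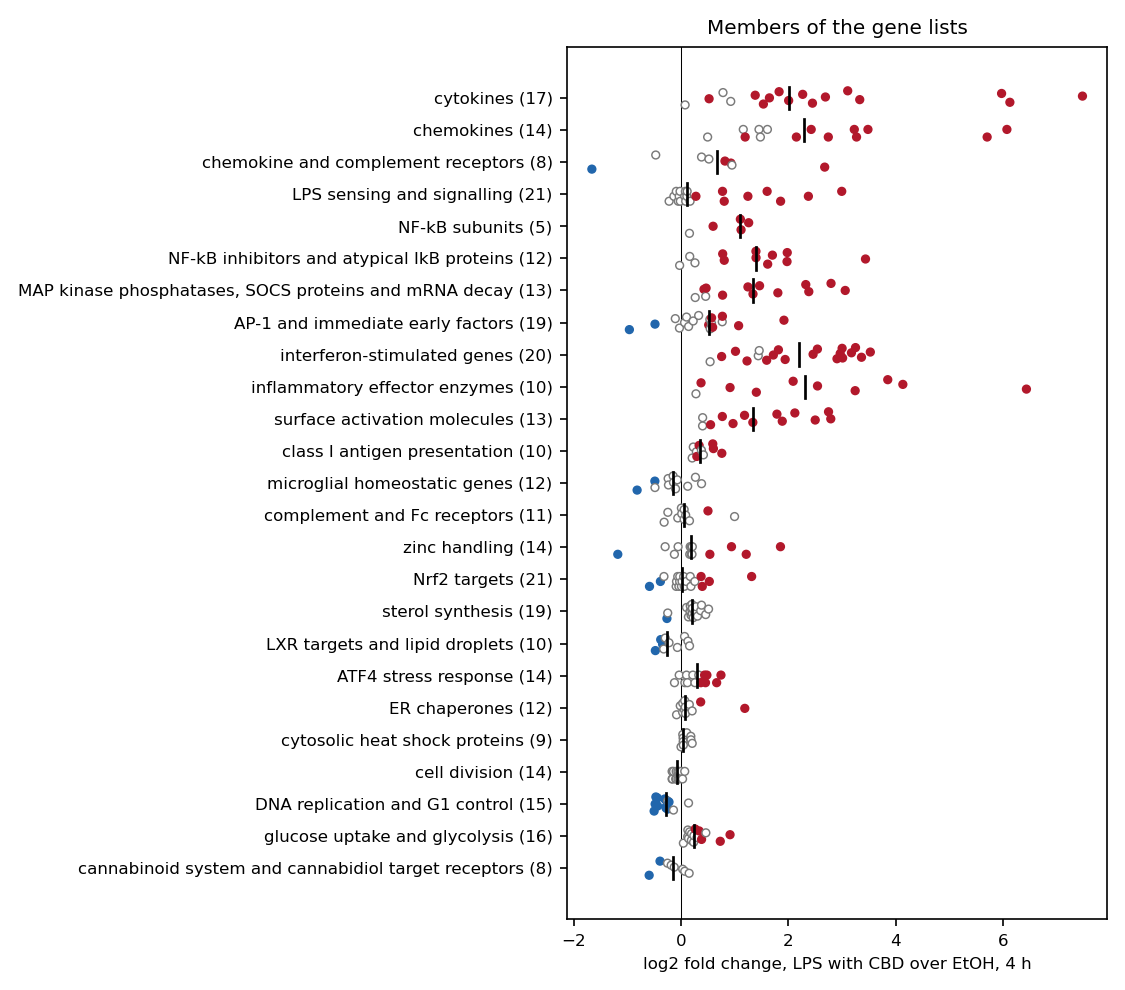
Log2 fold change of LPS with CBD over EtOH at 4 h for every tested member of the 25 gene lists, with the number tested in brackets. Filled points were called (red higher, blue lower), open points were not, and black bars are list medians. Medians lie above 2 for cytokines, chemokines, interferon-stimulated genes and effector enzymes, at −0.29 for DNA replication and G1 control, and near 0 for Nrf2 targets (0.02) and cell division (−0.08).

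Genes that handle zinc were few but clear. Of 14 tested, Mt2 (1.85), Slc30a1 (1.21), Mt1 (0.94) and Slc39a1 (0.54) rose and Slc39a10 fell, with a median of 0.19. Slc30a1, on chromosome 1 (191638879 to 191645359), encodes the exporter that carries zinc out of the cell, and had 733, 749 and 668 with EtOH and 1897, 1752 and 1378 with LPS and CBD, a 2.32-fold rise (1.21 ± 0.11, adjusted p = 0.000291, limma). The metallothioneins bind zinc in the cytosol. Mt1 had 7311, 6255 and 6973 against 15848, 13479 and 10515 (0.94 ± 0.13) and Mt2 8.83, 9.69 and 9.38 against 35.6, 43.3 and 30.6 (1.85 ± 0.26). Mt1 and Mt2 are near copies that reads may be split between, and Mt2 had 29 to 41 reads in the treated libraries. All of these calls except that of Slc39a1 held without any 1 library. Mtf1, the zinc-sensing transcription factor (0.19), and the other 8 transporters were not called.

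Set against LPS alone at 4 h, which has the same dose of LPS and no CBD, only 1 of 11424 genes was called (0.00875%) by limma, with 363 (3.18%) at an unadjusted p below 0.05. That gene was Slc30a1. It had 719, 630 and 666 with LPS alone and 1837, 1682 and 1336 with LPS and CBD in the joint normalization of these 6 libraries (log2 difference 1.26, 95% interval 0.99 to 1.52, adjusted p = 0.034). edgeR called 1 gene and DESeq2 3, adding Mt1 and Slc39a10. Replicates with the same number varied together in these 2 groups (correlations of 0.63, 0.58 and 0.23), and with the replicate number as a block 4 genes were called: Slc30a1, Mt1 and Ccl4 higher and Slc39a10 lower. Without the block, the call of Slc30a1 was lost without LPS replicate 1 or 3 or LPS with CBD replicate 1 or 2. The vehicle of the LPS-alone cultures is not given, so CBD and a possible difference of vehicle cannot be told apart in this comparison.

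Without the block the other zinc genes were not called. Slc39a10 had 1109, 1080 and 964 with LPS alone and 472, 565 and 608 with LPS and CBD (−0.94, interval −1.18 to −0.70, adjusted p = 0.0766, limma), and no value of one group reached the other. Mt1 had 6742, 6843 and 6324 against 15344, 12941 and 10191 (0.93, 0.63 to 1.23). Mt2 had 7.98, 16.0 and 6.00 against 34.5, 41.6 and 29.7 (1.81, 0.98 to 2.65). Slc39a1, the fifth zinc gene that differed from EtOH, differed from LPS alone by 0.02 (−0.25 to 0.30).

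The list median of the difference between LPS with CBD and LPS alone was 0.25 for cytokines and 0.14 for chemokines. The medians of the difference from EtOH were 2.01 and 2.29. Over all 11424 genes compared with LPS alone, the median half-width of the 95% interval was 0.236 on the log2 scale. The interval lay within ±1 for 10610 genes (92.9%). Of the 863 genes called higher than EtOH, 814 (94.3%) had an interval within ±1 and the median difference from LPS alone was 0.07. Of the 690 genes called lower that could be compared, 681 (98.7%) had such an interval, with a median of −0.03. A limit of ±1 is wider than the median called rise over EtOH (0.66) and fall (−0.43). These shares therefore do not show that the difference from LPS alone was small beside those effects. Tnf had 7170, 6247 and 6561 with LPS alone and 8412, 7564 and 8019 with LPS and CBD (0.27, 0.09 to 0.44, not called). Intervals were wide for genes that varied between cultures: Il1b had 1145, 3655 and 1345 against 1611, 3813 and 1759 (0.31, −0.72 to 1.34), and Nos2 1012, 4245 and 1381 against 1385, 4301 and 2031 (0.34, −0.90 to 1.58). In each pair of libraries with the same replicate number the LPS with CBD library was the higher for both genes. In the fit blocked on replicate number the intervals were 0.15 to 0.48 for Il1b (adjusted p = 0.202, limma) and 0.16 to 0.53 for Nos2 (adjusted p = 0.227, limma), and neither gene was called. That fit also put the intervals of Tnf (0.15 to 0.38), Il1a (0.11 to 0.39) and Cxcl2 (0.14 to 0.40) above 0. Those of Lcn2 (0.25 to 0.68), Acod1 (0.04 to 0.27) and Ccl4 (0.34 to 0.60) lay above 0 as well. Mmp13 lay below 0 (−0.29 to −0.008), and the intervals of Csf3, Ccl20, Il36a and Gbp5 included 0. Among these genes only Ccl4 was called. These intervals are not adjusted for the 11424 genes compared. The share of all genes whose interval left out 0 in that fit is not given here. The intervals are therefore not a result about inflammatory genes as a group. The comparisons with EtOH and with LPS alone share the LPS with CBD libraries, so their values are given side by side and not correlated.

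**Figure D4:**
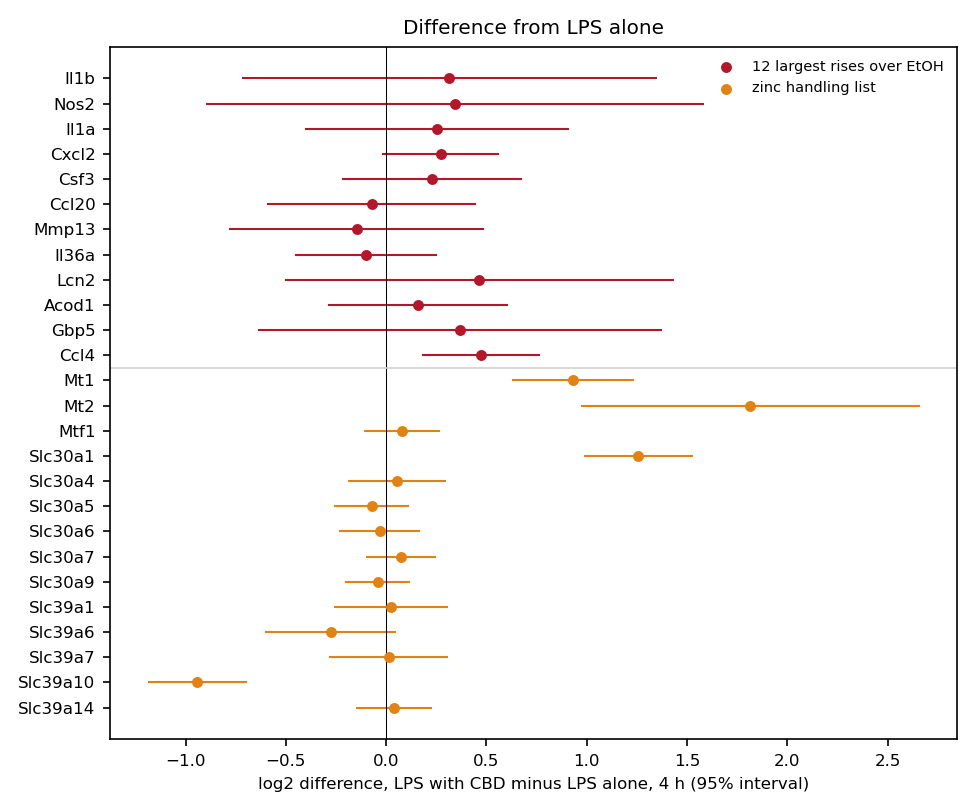
Log2 difference between LPS with CBD and LPS alone at 4 h with its 95% interval (limma, n = 3 per group) for the 12 largest rises over EtOH (red) and the 14 tested genes of the zinc handling list (orange). Slc30a1 (1.26), Mt1 (0.93), Mt2 (1.81) and Slc39a10 (−0.94) lie away from 0, the interval of Ccl4 (0.18 to 0.76) also leaves out 0, and all other intervals include it. The fit shown has no replicate block. With the block further intervals leave out 0, such as those of Il1b and Nos2, but neither gene was called.

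The difference between LPS with CBD and EtOH was not the same at 24 h. In an interaction test over 12 libraries, 4097 of 12120 genes (33.8%) changed their effect between the times, 2011 towards higher (16.6%) and 2086 towards lower values (17.2%) at 24 h. Of the 863 genes called higher at 4 h, 265 had a more negative and 124 a more positive effect at 24 h, and of the 694 called lower, 171 and 198. These genes were called on the same 4 h libraries that enter the interaction, a choice that favours smaller effects at 24 h. Il1b, at 7.48 on the log2 scale in this fit, had an effect of 2.67 at 24 h, with normalized counts of 27.5, 60.2 and 29.7 with EtOH and 195, 470 and 149 with LPS and CBD. For Nos2 the EtOH libraries were themselves higher at 24 h (708, 920 and 916, against 3324, 5360 and 1643 with LPS and CBD), and the effect was 1.87.

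Of the early feedback genes, 6 of 13 genes for MAP kinase phosphatases, SOCS proteins and mRNA decay had a more negative effect at 24 h and none a more positive one, with Cish at −0.32 and Ier3 at −0.47. None of the 20 interferon-stimulated genes was called for a change of effect by limma, edgeR or DESeq2, and 1 had an unadjusted p below 0.05. Their list medians were 2.18 at 4 h and 2.33 at 24 h, beside −0.02 and −0.01 over all genes. The absence of calls does not show that these effects stayed the same, since libraries spread widely in this list. The change of Gbp5, for example, had an SE of 0.72. The zinc genes moved further, Mt1 to 1.96, Mt2 to 3.60 and Slc39a10 to −2.30, while Slc30a1 was at 1.59 and its change between times was not called (0.39). Lists for growth and metabolism also changed. All 14 genes of cell division became more negative, from a median of −0.10 to −1.37, with Mki67 at 10224, 10846 and 9109 with EtOH and 3896, 3165 and 2880 with LPS and CBD at 24 h. Of the sterol synthesis genes 18 of 19 became more negative (median −0.76 at 24 h), of the glycolysis genes 13 of 16 (−0.77), and of the Nrf2 targets 15 of 21 became more positive (0.59). Cultures at 24 h were deeper in part, with 14539102 to 26676607 reads with EtOH and 15933300 to 19253170 reads with LPS and CBD, and the mitochondrial share of the latter was 1.25% to 1.4%. The part of depth and mitochondrial share in these changes was not tested.

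**Figure D5:**
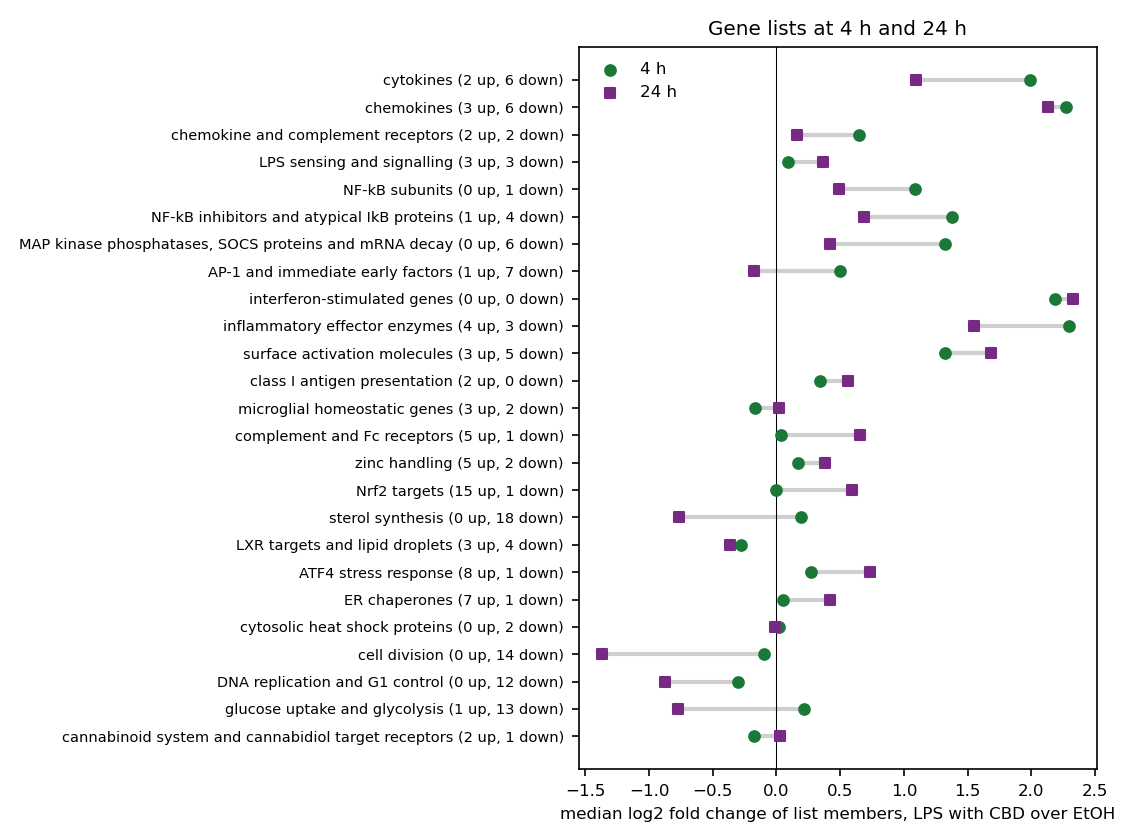
Median log2 fold change of LPS with CBD over EtOH at 4 h (circles) and 24 h (squares) for each gene list, with the number of members whose effect became more positive (up) or more negative (down) at 24 h by the interaction test. Interferon-stimulated genes lie at 2.18 and 2.33 at the 2 times, and cell division moves from −0.10 to −1.37. The absence of calls in a list does not show an unchanged effect.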

How the data were processed

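RNA-seq reads were processed by the authors with FastQC 0.12.1, cutadapt 4.4 and Trimmomatic 0.39, aligned to GRCm39 with HISAT2 2.2.1 and counted on Ensembl genes with HTSeq 2.0.3, whose strand setting is not given in the sources used here. The deposited signal values were counts divided by the DESeq2 (1.40.2) size factors of each pair of groups. Fold changes, p-values and class labels of the authors' own comparisons in the same tables were not used.

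From 9 of the 30 tables, whole reads were recovered for all 869647 values read from 50 of 54 library columns (100% whole within 0.01 reads). The other 4 columns have size factors near 1, and their reads were taken from another table. Genes with a normalized count of at least 10 in 3 libraries or more were tested with limma 3.58.1 (R 4.3.3) on log2(normalized count + 1), with a trended variance. Fold changes on this scale understate the change of low genes. Calls were made at a Benjamini-Hochberg adjusted p below 0.05. The comparison with LPS alone was fitted on its own 6 libraries, and the change between times as an interaction over 12 libraries. The recovered reads were tested with edgeR 4.0.16 (quasi-likelihood) and DESeq2 1.42.0. Other alternatives changed the scaling, pseudocount, filter, libraries and block. The tests were tried on simulated data first. Replicates differed by more than sampling noise in each group (chi-square per degree of freedom 4.83 to 31.0).

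Genes named were the 12 largest rises and 12 largest falls among called genes with non-overlapping groups and a mean of at least 50 in the higher group, all genes called against LPS alone, the 5 most positive and 5 most negative changes between times, and members of 25 gene lists and 6 marker lists. The genes, lists and tests were chosen with earlier results of these data known. In the comparison with LPS alone, libraries of 1 number deviated together (r of 0.63, 0.58 and 0.23 over 10096 genes), so the numbers were taken to pair the samples. Promoters were read from GRCm39 at GENCODE canonical starts for 11473 genes. Some items are not reported here.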

Additional observations from a re-analysis of the deposited data

Results flagged for a closer look

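By the interaction test of limma, the effect of LPS with CBD over EtOH differed between 4 h and 24 h in 4097 of 12120 genes. Each value below is the log2 effect at 24 h minus that at 4 h. Lcn2 changed by 6.31: its normalized counts with LPS and CBD were 314, 722 and 359 at 4 h and 23618, 31975 and 34456 at 24 h, while EtOH stayed between 10.8 and 56.8 over both times. Tenm4 (5.79), Avil (4.87), Ticam2 (4.69), an adaptor of Toll-like receptor 4, and Ffar2 (4.64), a receptor for short-chain fatty acids, were low in both groups at 4 h and higher with LPS and CBD at 24 h. Avil, for example, had 606, 445 and 995 against 42.0, 29.5 and 24.7 at 24 h.

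Ldc1 (−6.31) and Grin1 (−6.26), a subunit of the NMDA receptor, were higher at 24 h in the EtOH libraries. Ldc1 had 307 reads over the 24 h EtOH libraries and 0 with LPS and CBD. Grin1 had 311, 396 and 465 with EtOH and 1.12, 5.93 and 1.81 with LPS and CBD. Mpp2 (−5.72) and Lrrc32 (−5.35), which displays latent TGF-beta, changed direction, with effects of 2.49 and 2.48 at 4 h and −3.23 and −2.88 at 24 h.

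Of the leading rises at 4 h, Il1b (−4.81), Nos2 (−4.56), Ccl20 (−4.09), Mmp13 (−2.85), Cxcl2 (−2.12), Il1a (−1.15) and Ccl4 (−1.05) had smaller effects at 24 h. At 24 h Cxcl2 had 1041, 834 and 937 with EtOH and 14076, 15613 and 13567 with LPS and CBD. Ccl4 had 1107, 821 and 957 against 5697, 5025 and 4637. In both genes each group was higher than at 4 h, and EtOH rose more. Mmp13 was higher with EtOH than at 4 h (185, 134 and 170) and lower with LPS and CBD (627, 663 and 475). Of the leading falls, Rab3il1 (2.31), Treml1 (2.18), 4931408C20Rik (1.90), S1pr1 (1.37), Cxcr4 (1.27) and Rab19 (1.05) became more positive, and Slc39a10 (−1.10) and Lifr (−1.02) more negative. The leading rises and falls were chosen by their 4 h effect in the same libraries, which favours smaller effects at 24 h.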

How the results depend on the processing

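Leaving out 1 library at a time gave 871 to 1655 genes called against EtOH (538 to 1011 higher, 333 to 644 lower), with the lowest counts without EtOH replicate 6, and 0 to 1 called against LPS alone (0 to 1 higher). Requiring a log2 fold change beyond 1 left 330 genes against EtOH (294 higher, 36 lower) and 1157 for the change between times (533 more positive, 624 more negative). Against LPS alone, DESeq2 called 3 genes (2 higher, 1 lower), dropping the filter on low values gave 2 (1 lower), and fitting all libraries of the time point gave 3 (2 higher, 1 lower). With the replicate block that comparison gave 4 calls (3 higher, 1 lower). The cause of these shifts was not tested. The change between times gave 3375 to 4064 calls without 1 library, and with a replicate block 4504 (2184 more positive, 2320 more negative). There, libraries with the same number at 4 h and 24 h had correlations of 0.17, 0.46 and 0.03 for LPS with CBD. For EtOH they were 0.30, 0.22 and 0.04. These values do not settle whether the numbers pair the samples across times, and the main fit has no block. No paired analysis was possible for LPS with CBD against EtOH at 4 h because the labels number these groups 1 to 3 and 4 to 6 and do not say which libraries belong together.

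The 1557 calls against EtOH kept their sign in every alternative run, all of which reuse the same libraries. Their number was 1545 with edgeR, 1615 with DESeq2, 1567 with TMM scaling, 1446 without the filter and 1367 with all libraries of the time point. Leaving out both EtOH replicate 5 and LPS with CBD replicate 2, a choice made after seeing the data, gave 1561, of which 1276 were shared. In the fit without the replicate block, small differences from LPS alone could not be shown with 3 libraries a group. Larger ones were left uncalled too: Slc39a10 (−0.94), Mt1 (0.93) and Mt2 (1.81) did not pass, although their groups did not overlap. The median 95% interval of that fit reached 0.236 on the log2 scale to each side. That width is for single genes without adjustment and is not the smallest difference that could be called. With the block, Ccl4 was called at 0.47 (interval 0.34 to 0.60, adjusted p = 0.00989, limma).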
